A study of Homo sapiens with 4 samples.

Results

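The collagen hydroxylases are the enzymes that add hydroxyl groups to proline and lysine in new collagen chains, and 5 of their genes are described here. P4HA1, P4HA2 and P4HB encode subunits of collagen prolyl 4-hydroxylase, and PLOD1 and PLOD2 encode lysyl hydroxylases. They were chosen by function, as genes known to respond to hypoxia in tumour matrix, but with earlier results of these data known. They are 5 of 20176 protein-coding genes and of 64486 genes in the GENCODE annotation mapped to GRCh37, which has the coordinates of hg19. Binding was measured by ChIP-seq, which sequences the DNA that an antibody pulls down with its protein. HAUSP (USP7), a deubiquitinase, was precipitated from the lung cancer line H1299 and the breast cancer line MDA-MB-231. HIF-1α, the oxygen-regulated subunit of the transcription factor HIF-1, was precipitated from H1299. Each list of peaks came from 1 library of cells grown in DMEM with fetal bovine serum, and the oxygen level of these cultures and the control for peak calling were not given in the sources used here. The series also holds 1 input library of H1299, which was not used here.

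Hydroxyproline keeps the collagen triple helix stable at body temperature, and hydroxylysine carries sugars and forms strong cross-links between collagen molecules. These enzymes use oxygen and 2-oxoglutarate, as do the prolyl hydroxylases that mark HIF-1α itself for degradation. Under hypoxia, HIF-1 binds the core ACGTG or GCGTG near its target genes, and genes of collagen modification are among its known targets.

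The lists held 4054 HIF-1α peaks, 1379 HAUSP peaks of H1299 and 1343 HAUSP peaks of MDA-MB-231. Each peak has a score from the peak caller, and the lowest scores of HIF-1α and HAUSP in H1299 were 50.02 and 50.03, so a weaker peak would not be listed. Scores were compared only within a list. The read depth was not known, and with 1 library for each list there was no replicate error and no test of a difference between genes or lines. A listed peak is therefore an observation in that library, and the lack of one says only that no peak was listed.

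A peak was assigned to a gene when it touched the gene body or lay within 20 kb of the transcription start site (TSS), taken as the outermost annotated start. HIF-1α peaks were present in this region at 4 of the 5 genes, namely P4HA1, P4HB, PLOD1 and PLOD2, while 9.67% of all protein-coding genes had such a peak (95% Clopper-Pearson interval 9.27 to 10.1, which covers counting error only). HAUSP peaks of H1299 were present at 3 genes, P4HA1, PLOD1 and PLOD2, against 6.39% of all genes. HAUSP peaks of MDA-MB-231 were present at P4HA1 and PLOD1, against 4.21% of all genes. P4HA2 had no peak in any of the 3 lists. The regions of the 5 genes spanned 40001 to 148587 bp, and the median over all protein-coding genes was 47.2 kb, so 4 of these genes had wider regions than most genes. The regions of P4HA1 and P4HB hold promoter peaks that the study used to select genes on these libraries, so they are not independent evidence of binding at this family.

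HIF-1α and HAUSP peaks of H1299 overlapped at 3 of the 5 genes, P4HA1, PLOD1 and PLOD2, against 0.768% of all protein-coding genes. At each of them the whole HIF-1α peak lay inside the HAUSP peak. HAUSP peaks of H1299 were the wider ones, with a median of 1197 bp against 561 bp for HIF-1α. How many of all 110 HIF-1α peaks shared with HAUSP in H1299 lay wholly inside was not counted. HAUSP peaks of both lines overlapped at P4HA1 and PLOD1, against 1.65% of all genes, and at the same 2 genes all 3 lists overlapped, against 0.416% of all genes. In the promoter window, 500 bp on either side of the TSS, HIF-1α peaks were present at P4HA1 and P4HB (0.406% of all genes). In that window a HAUSP peak was present at P4HA1 alone, in H1299 (2.07% of all genes) and in MDA-MB-231 (0.54% of all genes). Members chosen for their known response to hypoxia, and with earlier results of these data known, are not a sample of genes. These shares are therefore given side by side without a test.

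**Figure D1:**
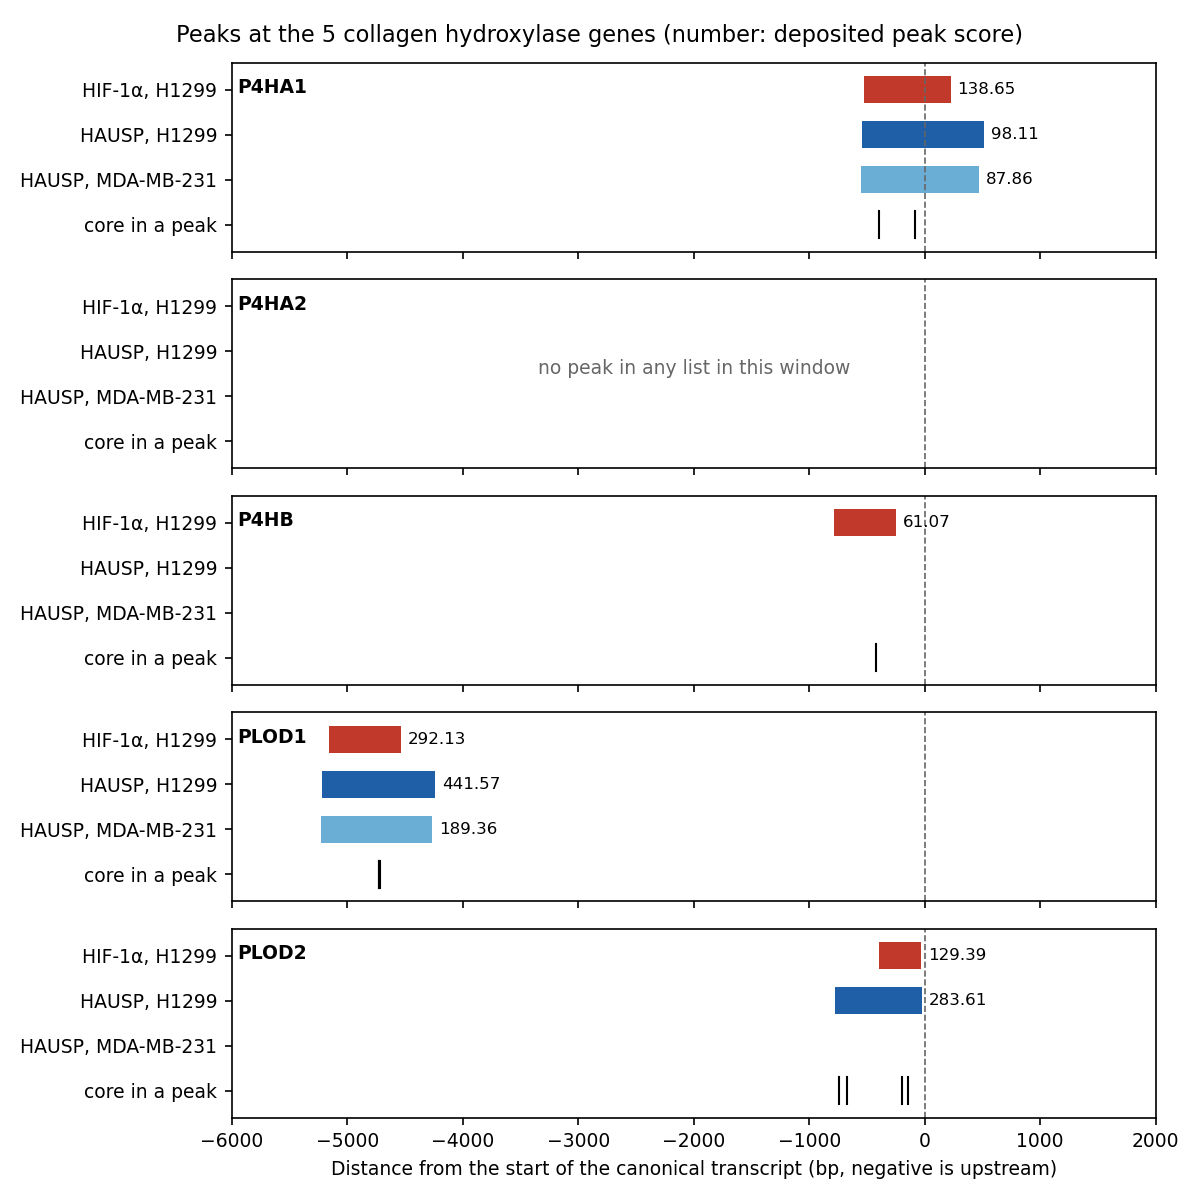
Position of each peak (bars) against the start of the canonical transcript of each gene (dashed line at 0), in bp along the gene's own direction, with the deposited score beside each bar and each ACGTG found inside a peak as a tick. P4HA1 and PLOD1 have bars in all 3 lists, PLOD2 in both lists of H1299, P4HB in the HIF-1α list, and P4HA2 in none. A further HIF-1α peak of PLOD2, 102604 bp downstream, is outside the plot.

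P4HA1 encodes a catalytic α subunit of prolyl 4-hydroxylase. The gene lies on the minus strand of chromosome 10 from 74766975 to 74856732 (ENSG00000122884.13), and the canonical transcript starts at 74856624. The HIF-1α peak ran from 74856400 to 74857150 (score 138.65, rank 50 of 4054). The HAUSP peak of H1299 ran from 74856114 to 74857168 (score 98.11, rank 400 of 1379). The HAUSP peak of MDA-MB-231 ran from 74856156 to 74857177 (score 87.86, rank 505 of 1343). All 3 peaks covered the canonical start, and the centres of the HAUSP peaks of both lines were 25 bp apart. The HIF-1α score was among the top 1.23% of its list, whereas 29.0% of the HAUSP peaks of H1299 and 37.6% of those of MDA-MB-231 scored at least as high as the peak at this gene. The next protein-coding start, of NUDT13, was 13063 bp from the HIF-1α peak.

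ACGTG occurred at 2 places in the P4HA1 peaks, one 84 bp before the canonical start in the 5′ UTR of a longer transcript and the other 395 bp before it, outside the annotated transcripts. Both lay inside the peaks of all 3 lists. They are shown because they are the ACGTG matches under the shared peak, with 10 bp on either side, in the direction of the gene and with the core in capitals (CACGT is ACGTG read on the other strand), at chr10:74856696-74856720 and chr10:74857007-74857031.
P4HA1 near site: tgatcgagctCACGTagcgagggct
P4HA1 far site: tctacactccCACGTtcctcttctc
The upstream part of the HIF-1α peak at chr10:74856733-74857032, up to the outermost start, read as follows on the minus strand in GRCh37.
P4HA1 upstream: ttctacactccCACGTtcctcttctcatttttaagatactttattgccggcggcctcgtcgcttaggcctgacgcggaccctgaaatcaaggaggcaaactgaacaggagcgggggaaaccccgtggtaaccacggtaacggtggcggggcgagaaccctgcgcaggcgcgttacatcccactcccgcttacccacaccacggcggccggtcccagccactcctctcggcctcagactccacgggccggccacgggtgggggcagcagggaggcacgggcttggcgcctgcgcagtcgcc

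P4HB encodes the β subunit, a protein disulfide isomerase that also works as a chaperone in the endoplasmic reticulum. It lies on the minus strand of chromosome 17 from 79801035 to 79818732 (ENSG00000185624.16), with the canonical start at 79818411. The HIF-1α peak ran from 79818659 to 79819197 (score 61.07, rank 1183 of 4054), so that 29.2% of the list scored at least as high. This score was near the median of the list (56.4) and not far above its lowest score (50.02). The nearer edge of the peak was 248 bp upstream of the canonical start. The nearest HAUSP peaks lay 142596 bp from this start (H1299) and 318622 bp from it (MDA-MB-231). P4HB was therefore the gene of the set with a HIF-1α peak at the promoter and no HAUSP peak in either line, and its score was the lowest of the 5 HIF-1α peaks in these regions. This peak also lay 59610 bp from an assembly gap of at least 50 kb, while the peaks of the other genes were over 1 Mb from such a gap.

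The P4HB peak held 1 ACGTG at 424 bp before the canonical start, 4 GCGTG and 1 ATGGCGGC, the core of the YY1 site. ATGGCGGC was present in 0.469% of all HIF-1α peaks, in 4.54% of promoters of protein-coding genes (250 bp before to 50 bp after the canonical start) and in no other peak of these genes. In the 300 bp at the centre it was present in 6.36% of the HIF-1α peaks shared with HAUSP in H1299, and the match at P4HB lay 189 bp from the peak centre, outside that part. The part of the peak at chr17:79818779-79819078, on the minus strand, is shown because it holds the ACGTG (in capitals) and lies outside annotated exons.
P4HB upstream: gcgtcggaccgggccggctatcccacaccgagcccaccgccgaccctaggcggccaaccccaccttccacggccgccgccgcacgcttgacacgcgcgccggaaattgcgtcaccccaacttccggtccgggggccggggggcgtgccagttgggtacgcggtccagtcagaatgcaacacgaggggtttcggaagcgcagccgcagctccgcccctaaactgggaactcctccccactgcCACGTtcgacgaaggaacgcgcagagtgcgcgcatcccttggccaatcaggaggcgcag

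PLOD1 encodes the lysyl hydroxylase that acts mainly on the helical part of collagen. It lies on the plus strand of chromosome 1 from 11994262 to 12035595 (ENSG00000083444.17), with the canonical start at 11994774. Its peaks had the highest scores of the set in each list. The HIF-1α peak ran from 11989618 to 11990241 (score 292.13, rank 16 of 4054). The HAUSP peak of H1299 ran from 11989555 to 11990535 (score 441.57, rank 51 of 1379). The HAUSP peak of MDA-MB-231 ran from 11989547 to 11990510 (score 189.36, rank 148 of 1343). The peak was thus in the top 0.395% of the HIF-1α list, the top 3.70% of HAUSP in H1299 and the top 11.0% of HAUSP in MDA-MB-231. The centres of the HAUSP peaks of both lines were 17 bp apart.

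These PLOD1 peaks were not at a promoter. The HIF-1α peak lay between genes, with its nearer edge 4533 bp upstream of the canonical start of PLOD1 and 3134 bp from the start of KIAA2013, so KIAA2013 was the nearer gene. Binding here cannot be assigned to PLOD1 by position alone. Among the 110 HIF-1α peaks shared with HAUSP in H1299, this one ranked 15, and among the 63 that overlapped HAUSP in both lines it ranked 14.

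The cores under this peak were clustered. ACGTG matched at 3 places within chr1:11990045-11990058, of which 2 are both strands of the palindrome CACGTG, and the third begins 9 bp after the start of the first. The cluster was 2 to 11 bp from the centre of the HAUSP peak of H1299, 19 to 28 bp from that of MDA-MB-231 and 118 to 127 bp from that of the HIF-1α peak. The stretch chr1:11989780-11990079, on the plus strand, is shown because it places this cluster in the middle part of the HIF-1α peak, with the cores in capitals.
PLOD1 distal: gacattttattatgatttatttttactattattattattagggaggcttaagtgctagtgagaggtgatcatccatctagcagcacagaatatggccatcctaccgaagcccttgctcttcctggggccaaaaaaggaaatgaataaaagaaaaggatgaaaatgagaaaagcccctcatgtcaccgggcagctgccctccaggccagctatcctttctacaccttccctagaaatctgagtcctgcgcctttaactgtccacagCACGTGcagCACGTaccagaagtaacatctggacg

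PLOD2 encodes the lysyl hydroxylase that acts on the ends of the collagen chains and so favours stable cross-links. It lies on the minus strand of chromosome 3 from 145752926 to 145881512 (ENSG00000152952.14). Its outermost start is 2541 bp upstream of the canonical start at 145878971, and the peaks lay between these starts. The HIF-1α peak ran from 145879007 to 145879364 (score 129.39, rank 54 of 4054), and ended 36 bp before the canonical start. The HAUSP peak of H1299 ran from 145878998 to 145879746 (score 283.61, rank 91 of 1379), and ended 27 bp before it. No HAUSP peak of MDA-MB-231 was listed within 7.55 Mb of this start, and 93.1% of protein-coding genes had one at least as near. Over all protein-coding genes, 1290 had a HAUSP peak of H1299 in their region. Only 332 had one that overlapped a HAUSP peak of MDA-MB-231, so most of them lacked an overlapping peak, as PLOD2 did. The promoter window around the outermost start missed the HIF-1α and HAUSP peaks of H1299 at PLOD2. With windows around the canonical start instead, a choice made once the peaks had been seen, PLOD2 joined P4HA1 and P4HB for HIF-1α and P4HA1 for HAUSP in H1299. The share of all genes was not counted for these windows, and the shares around the outermost start are not a background for them.

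The centre of the HIF-1α peak was annotated as UTR of another PLOD2 transcript. ACGTG occurred 144 and 198 bp before the canonical start, and GCGTG 211 bp before it, 3 bp from the centre of the HIF-1α peak. The HAUSP peak also held ACGTG 672 and 740 bp before the start, upstream of the HIF-1α peak. The matches under both peaks are shown with 10 bp on either side, at chr3:145879103-145879127 and chr3:145879157-145879181 on the minus strand.
PLOD2 near site: aacagtccagACGTGgggcccagga
PLOD2 far site: tgagcctccaCACGTagccgcaggc
A further HIF-1α peak, from 145776190 to 145776544 in an intron of PLOD2, had a score of 73.16, rank 334, tied with other peaks of that score. Its edge was 102427 bp from the canonical start of PLOD2. The nearest start, 2922 bp away, was that of a long noncoding RNA gene (ENSG00000261051). This intronic peak overlapped no HAUSP peak, had a GC content of 36.9% against 68.4% for the peak at the PLOD2 start, and held no ACGTG and 1 GCGTG.

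The order of these genes differed between the lists. By HIF-1α score it was PLOD1, P4HA1, PLOD2 and P4HB, and P4HA1 and PLOD2 were only 4 ranks apart. By HAUSP score in H1299 it was PLOD1, PLOD2 and P4HA1, at ranks 51, 91 and 400. In MDA-MB-231 PLOD1 and P4HA1 had ranks 148 and 505, and PLOD2 was not listed. Without replicate libraries it cannot be said which of these neighbours differ beyond their spread.

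P4HA2 encodes the other main catalytic α subunit. It lies on the minus strand of chromosome 5 from 131525840 to 131631008 (ENSG00000072682.20), with the canonical start at 131563546. The nearest HIF-1α peak was 251456 bp from this start, and 37.1% of protein-coding genes had a HIF-1α peak at least as near. The nearest HAUSP peaks were 591582 bp away in H1299 and 591666 bp away in MDA-MB-231, as near or nearer for 48.8% and 41.2% of genes. P4HA2 was thus close to the middle of all genes in each list. ACGTG was present in its promoter, as in 23.2% of promoters of protein-coding genes (250 bp before to 50 bp after the canonical start, either strand). Of the genes with a HIF-1α peak, P4HA1 and PLOD2 held ACGTG in the same window, and P4HB and PLOD1 did not. The stretch chr5:131563551-131563800, on the minus strand just before the canonical start, is shown because P4HA2 had the core and no listed peak. Of the 2 ACGTG in capitals, the second lies in the promoter window of 250 bp and the first at its upstream edge, not wholly inside it.
P4HA2 upstream: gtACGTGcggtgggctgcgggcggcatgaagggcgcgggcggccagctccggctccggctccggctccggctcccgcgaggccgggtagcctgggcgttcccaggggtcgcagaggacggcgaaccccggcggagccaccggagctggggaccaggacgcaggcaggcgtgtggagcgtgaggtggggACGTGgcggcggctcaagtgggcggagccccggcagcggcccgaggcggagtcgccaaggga

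**Figure D2:**
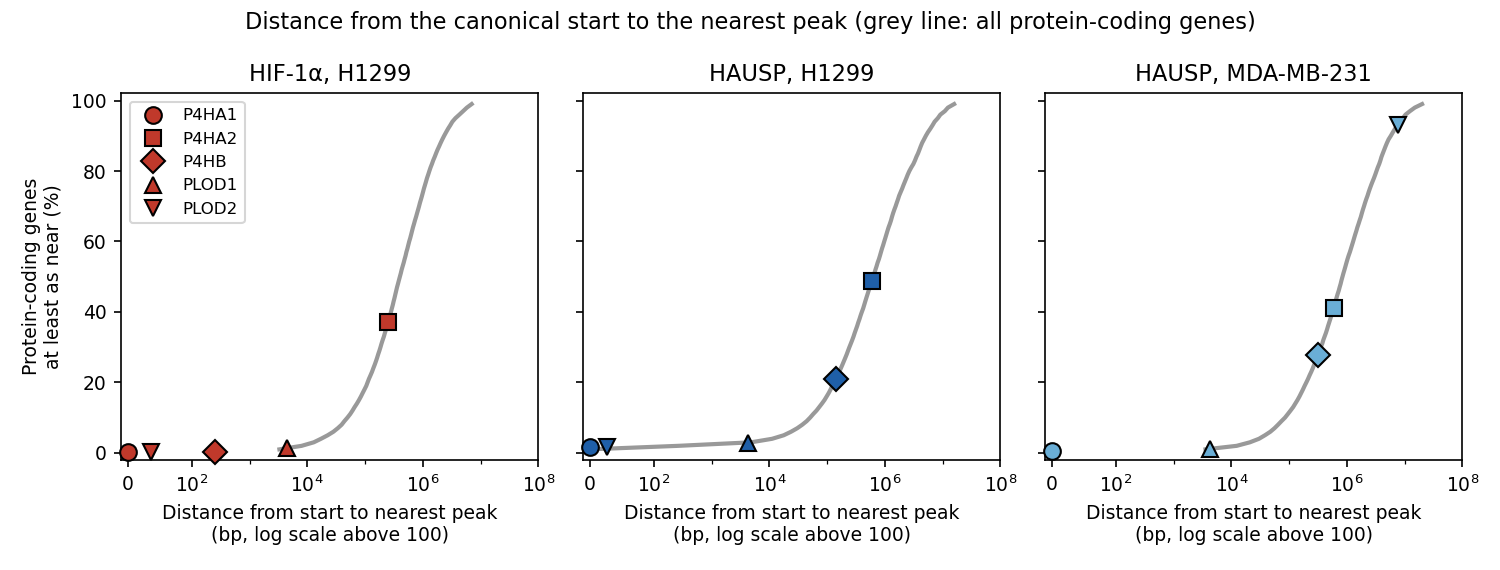
Share of protein-coding genes whose nearest peak is at least as near as the distance on the x axis (bp from the canonical start, log scale above 100), as a grey line from the 1st to the 99th percentile, with the 5 genes as symbols. P4HA1, P4HB, PLOD1 and PLOD2 are at or below 1.25% for HIF-1α, P4HA2 stays between 37.1% and 48.8% in all panels, and PLOD2 moves from 1.73% in H1299 to 93.1% in MDA-MB-231 for HAUSP.

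Set beside all genes, the HIF-1α peak covered the canonical start of P4HA1, as for 52 of 20098 genes on chromosomes with a HIF-1α peak. For PLOD2, P4HB and PLOD1, 0.284%, 0.358% and 1.25% of genes had a HIF-1α peak at least as near. For HAUSP in H1299 the shares were 1.67% for P4HA1, 1.73% for PLOD2, 2.88% for PLOD1 and 21.1% for P4HB. The median distance over all genes was 400 kb for HIF-1α, 629 kb for HAUSP in H1299 and 837 kb for HAUSP in MDA-MB-231.

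The sequence cores were compared with all peaks of the same list. Of the 10 peaks in the regions of these genes, 9 held ACGTG on at least 1 strand, the exception being the intronic HIF-1α peak of PLOD2. Peaks of different lists overlapped at P4HA1, PLOD1 and PLOD2, so the same matches were counted in more than 1 list. The 10 peaks are therefore not independent views of sequence. Over whole peaks it was present in 20.7% of the HIF-1α list, 63.5% of HAUSP peaks of H1299 and 59.2% of those of MDA-MB-231, whose peaks are wider. In the 300 bp at the peak centre it was present in 4 of the 5 HIF-1α peaks, against 12.5% of the whole list and 79.1% of the 110 HIF-1α peaks shared with HAUSP in H1299. For the HAUSP peaks of P4HA1 and PLOD1 in both lines the central 300 bp also held ACGTG, against 31.9% and 31.6% of the lists. The HAUSP peak of PLOD2 had none in its central 300 bp, since its matches lay at least 203 bp from the centre. ACGTG and GCGTG were counted separately, and CACGTG counts as a match on both strands. In promoters, GCGTG was present in 44.9% of all genes, and P4HA1 was the only one of the 5 genes without it.

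Of 37 related genes of collagen maturation and of other 2-oxoglutarate hydroxylases, 4 had a HIF-1α peak in their region, or 10.8%, close to the 9.67% of all genes. HAUSP peaks were present at 5 in H1299, or 13.5% against 6.39% of all genes, and at 4 in MDA-MB-231, or 10.8% against 4.21%. No peak of any list was present at 28 of the 37. Among 12 other genes of collagen modification, PLOD3, the third lysyl hydroxylase, was the only one with a peak. It had a HIF-1α peak on chromosome 7 from 100860830 to 100861592 (score 130.35, rank 53), a HAUSP peak of H1299 (score 211.04, rank 145) and one of MDA-MB-231 (score 78.7, rank 631). These peaks also covered the start of ZNHIT1, the nearest gene. P4HA3, the third α subunit, had none. The HIF-1α scores of PLOD3, PLOD2 and P4HA1 had ranks 53, 54 and 50. The PLOD3 site lay at chr7:100861340-100861364.
PLOD3 site: ttgactcattACGTGgcgtttcctt

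Of 5 cross-linking oxidases, LOX had a HIF-1α peak 13230 bp upstream of its canonical start with a score of 55.91 (rank 2129) and no HAUSP peak. The 5 genes of procollagen processing had none in any list, and the 9 collagen genes had no HIF-1α peak. Among 6 other 2-oxoglutarate hydroxylases, ASPH, which hydroxylates aspartate and asparagine and was also on the study's list of genes, had overlapping peaks of HIF-1α (score 61.36) and of HAUSP in H1299 (score 125.56) at its promoter. EGLN2, a prolyl hydroxylase of HIF-1α, had a HIF-1α peak 6574 bp from its canonical start with a score of 57.6. HIF1AN, the asparaginyl hydroxylase of HIF-1α, had a HAUSP peak of H1299 (score 54.41) near its outermost start, 5452 bp from the canonical one, which also covered the start of another gene. The other HAUSP peaks were named after their values were seen. They were at LOXL2 in H1299 (score 106.79) and MDA-MB-231 (58.08), and at COL6A2 in H1299 (63.74). In MDA-MB-231 they were at COL5A1 (62.03) and EGLN3 (227.81, rank 116). The EGLN3 score was above that of PLOD1 in the same list (189.36), and the LOXL2 score in H1299 was above that of P4HA1 (98.11).

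**Figure D3:**
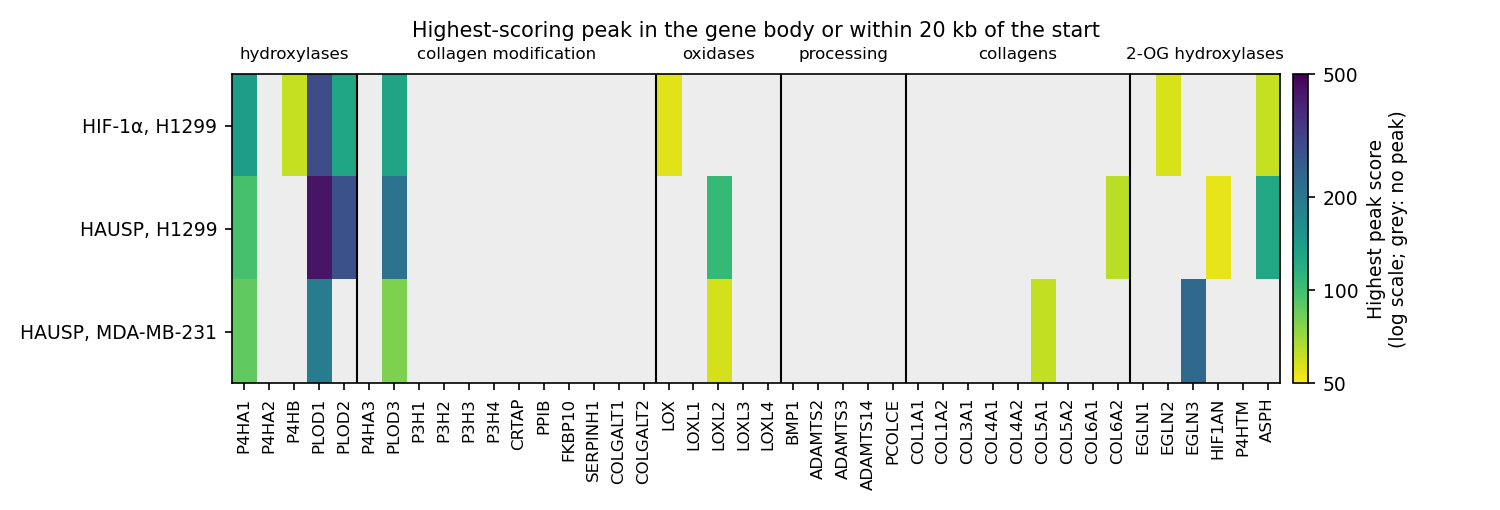
Highest peak score (colour, log scale) in the gene body or within 20 kb of the TSS for the 5 hydroxylase genes and the 37 related genes, one column for each gene and one row for each list, with grey where no peak was listed. PLOD1, P4HA1 and PLOD3 are the columns filled in all 3 rows, and 28 of the related genes are grey throughout.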

How the data were processed

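HAUSP was precipitated from H1299 and MDA-MB-231 and HIF-1α from H1299, with 1 library each. Alignment to hg19 by the authors used Bowtie 0.12.7, and their peaks were called by MACS 1.4.2 with its defaults. The deposited files hold 1 peak per line with its position and a score, which was used as deposited and within a list only. Depth per library was not known.

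Starts were converted to count from 1 and chromosome names were made uniform. Genes and sequences came from GENCODE release 44 on GRCh37, which also gave the canonical transcript. RefSeq promoters of another build were not used. Peaks were assigned by an overlap of at least 1 bp with the gene body, a window of 20 kb around the TSS or a promoter window of 500 bp on either side, as in the study. Counts of genes were set beside those over all 20176 protein-coding genes. No test was made. The members and lists were chosen with earlier results of these data known. Genes named are the 5 members, the nearest gene to each of their peaks, and related genes with a promoter peak or a HIF-1α peak. NUDT13, P4HA3, LOXL2, COL6A2, COL5A1 and EGLN3 are outside this rule and were named after their values were seen. The counting steps were tested on simulated data. The work used Python 3.11.15, numpy 2.4.6, scipy 1.17.1, pysam 0.24.0 and matplotlib 3.10.9.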

Additional observations from a re-analysis of the deposited data

How the results depend on the processing

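No paired analysis was possible because there was 1 library per list, and depth was not known. A count of genes or peaks was taken as moved when it changed by over 1.5 times, and a share of all genes when it left its 95% interval. By these rules 16 of 47 alternatives moved a value and 31 were taken as not moved. Some of these 31 still changed a small count. With scores of at least 100, genes with a HIF-1α peak in the region fell from 4 to 3. Those with a HAUSP peak of H1299 there fell from 3 to 2. With any transcript start, genes with a HIF-1α peak in the promoter window rose from 2 to 3. The counts of members with a peak in the region were the same with windows of 5 or 50 kb, without the gene body and with the peak centre in the region. The counts with overlapping peaks were the same with a window of 5 kb and with an overlap of 50% of the shorter peak.

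With scores of at least 100, 1 gene had a HIF-1α peak in the promoter window. A HAUSP peak was present there at 0 genes in H1299 and at 0 in MDA-MB-231. At that score 1 gene had a HAUSP peak of MDA-MB-231 in the region and 1 had a HAUSP peak found in both lines. HIF-1α and HAUSP peaks of H1299 overlapped at 2 genes, against 3 without this minimum. P4HA1 scored under 100 in both HAUSP lists and P4HB in the HIF-1α list. Shares of all genes for the promoter window and for overlapping peaks were not counted at that score. With any transcript start, or with the canonical start (chosen once the peaks had been seen), the promoter windows of 2 genes, P4HA1 and PLOD2, held a HAUSP peak of H1299. The share of all genes was not counted with either choice of start.

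The shares of all genes with a peak in the region moved as follows for HIF-1α, HAUSP in H1299 and HAUSP in MDA-MB-231. They were 6.77%, 4.32% and 3.25% with all annotated genes, 4.48%, 5.34% and 2.91% without the gene body, and 0.506%, 1.4% and 1.09% with scores of at least 100, where 3, 2 and 1 of the 5 genes had a peak.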
